A study of Mus musculus with 12 samples.

Results

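The genes of the IL-6 family receptors, the IL-1 receptor, STAT3 and its feedback inhibitor, and the C/EBP transcription factors were followed in livers of septic mice. The 10 genes Il6ra, Il6st, Osmr, Lifr, Il1r1, Jak2, Stat3, Socs3, Cebpb and Cebpd were taken by symbol from the 25611 genes of the table of read counts, and all 10 were found once and passed the filter on low counts that left 13190 genes for testing. RNA-seq was performed in whole livers of 12 male C57BL/6J mice (C57BL6J in the labels) aged 8 to 10 weeks, with 4 mice in each of 3 groups. Sham mice had an abdominal incision with the cecum neither ligated nor punctured, CLP mice had cecal ligation and puncture, a model of polymicrobial sepsis, and CLP+DCA mice had the same surgery and dichloroacetate (DCA), an inhibitor of pyruvate dehydrogenase kinase, at 25 mg/kg intraperitoneally 24 hr after it. All livers were collected 30 hr post-surgery, which was 6 hr after the DCA injection, and all mice were given fluids under the skin. The labels give no genotype beyond the strain. A vehicle injection of sham or CLP mice is not given in the sources used here, and DCA without CLP was not analysed here.

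IL-6 and its relatives (IL-11, oncostatin M, LIF, cardiotrophins) signal through receptor pairs that share the subunit gp130, encoded by Il6st. Janus kinases bound to these receptors phosphorylate STAT3, STAT3 switches on Socs3, and the SOCS3 protein binds gp130 and the kinase and damps the signal. In hepatocytes this pathway, with IL-1 signaling through IL1R1 and with C/EBPβ and C/EBPδ, drives the acute phase response, in which the liver secretes plasma proteins such as serum amyloid A, haptoglobin and fibrinogen. RNA levels as measured here do not report receptor protein or STAT3 phosphorylation.

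The libraries held 24436513 to 44266819 counted reads. Levels are given in CPM (counts-per-million, on library totals scaled by the trimmed mean of M-values, TMM), and groups as mean ± SD with n = 4 mice. Differences are log2 fold changes from a single edgeR quasi-likelihood fit of all 12 mice, with the standard error (SE) and p-values adjusted by Benjamini-Hochberg over the 13190 genes, and a gene was called at an adjusted p under 0.05. One library stood apart: CLP+DCA replicate 3 had the highest or the lowest level of all 12 mice in 6 of the 10 genes, so that values with and without it are given for all 10 genes in all 3 comparisons in the plot of fold changes and in the text wherever it changed a call. The share of all genes in which that library was highest or lowest was not counted. Leaving it out also changed the calls over all genes, from 367 to 3157 in CLP versus sham and from 1 to 616 in CLP+DCA versus CLP. As the mouse was singled out by these same genes, p-values without it describe the data and are no independent test. The 3 comparisons share mice (sham in both comparisons with sham, CLP in both with CLP, CLP+DCA likewise), so they are not independent of each other.

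**Figure D1:**
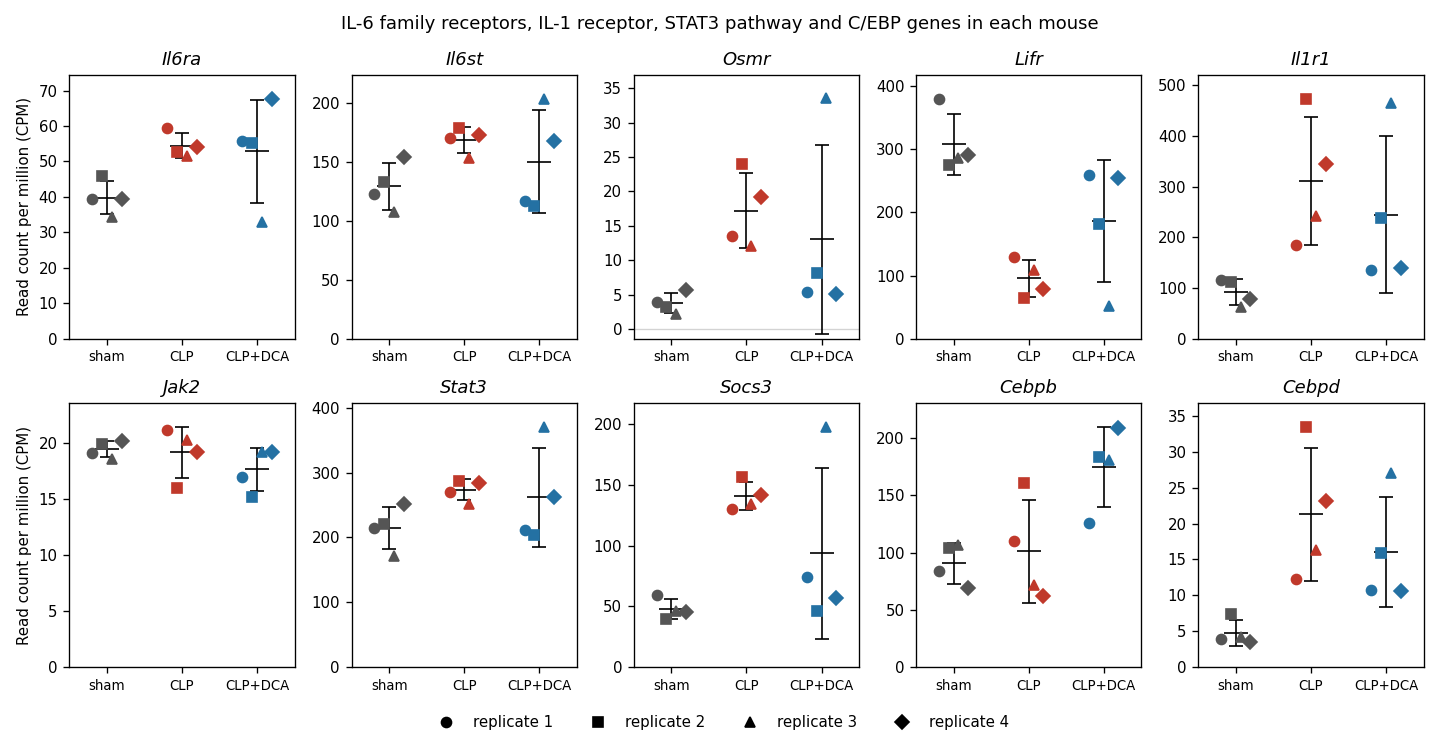
Each panel shows the level of 1 gene in CPM (vertical axis, linear) in every mouse of the sham, CLP and CLP+DCA groups, with the symbol giving the replicate number, the horizontal dash the group mean and the whiskers ± SD (n = 4). Osmr, Il1r1, Socs3 and Cebpd lie above sham in all CLP mice and Lifr lies below. CLP+DCA replicate 3 (triangle) lies with or beyond the CLP mice for Osmr, Lifr and Socs3, while the other CLP+DCA mice lie on the sham side of all CLP mice.

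Whole liver holds several cell types, and in bulk RNA fewer cells of a type and less RNA per cell cannot be told apart. Summed CPM of 9 hepatocyte markers, none of them at 0 in any mouse, ran from 68368 to 88240 in sham, from 33015 to 51378 in CLP and from 29050 to 62169 in CLP+DCA, where the lowest value was that of replicate 3. Alb was the largest part of this sum. Ass1 was the smallest, at 16 to 33 reads in sham, 2 to 21 in CLP and 1 to 22 in CLP+DCA. In CLP and CLP+DCA this goes under the floor of 3 reads used for genes of a few reads. By sign 7 of the 9 were lower in CLP than in sham and 2 were higher. These 2 were Apob (means of 6262 CPM in sham and 7497 in CLP) and Hnf4a (714 and 740). Summed CPM of 12 neutrophil and monocyte markers ran from 7.502 to 10.8 in sham and from 32.4 to 42.9 in CLP, and was 7.79, 15.2, 55.9 and 8.30 in CLP+DCA replicates 1 to 4. Camp was at 0 in all sham mice, Ngp in 3 of them, and Mpo in 3 CLP mice. Cholangiocyte markers (6 genes, with Cftr at 0 in sham replicate 2) summed to 34.4 to 43.8 CPM in sham, 62.1 to 96.3 in CLP and 38.4 to 213 in CLP+DCA, with the highest value again in replicate 3. Spp1 and Sox9 made up most of this sum, with highest levels in CLP+DCA of 139 and 71.0 CPM. Krt19, Krt7, Epcam and Cftr were at most 0.827, 1.16, 1.21 and 0.298 CPM in CLP+DCA. From sham to CLP the mean of Krt19 went from 0.703 to 1.90 CPM and that of Epcam from 1.05 to 1.12. Kupffer cell markers (10 genes) ran from 207 to 346 CPM in sham, 323 to 414 in CLP and 268 to 520 in CLP+DCA, stellate cell markers (8 genes) from 90.0 to 143, 123 to 439 and 111 to 263, and sinusoidal endothelial markers (8 genes) from 116 to 147, 134 to 169 and 114 to 163, with none of these markers at 0. The stellate sum of 439 CPM was that of CLP replicate 3, against 123 to 179 in the other CLP mice. Des reached 172 CPM in CLP, with a median of 3.83. By sign 9 of 10 Kupffer cell markers were higher in CLP than in sham and 1 lower. Of the stellate cell markers and of the endothelial markers, 6 of 8 were higher and 2 lower. Lymphocyte markers (8 genes) summed to at most 4.08 CPM in any mouse, and 4 of them were at 0 in CLP replicate 2. The part of these shifts in the results that follow was not tested.

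To ask what CLP did to the pathway, CLP was compared with sham. Cebpd rose, by 2.17 on the log2 scale, and was the only one of the 10 genes called (1 of 10, against 2.78% of all genes tested in either direction and 1.64% called higher). The values of CLP and sham mice did not overlap in 7 of 10 genes, against 26.5% of all genes: Il6ra, Osmr, Il1r1, Stat3, Socs3 and Cebpd were higher in every CLP mouse, and Lifr was lower in every CLP mouse. This count is of TMM-scaled levels and was not made on library totals alone. The TMM factors ran from 1.03 to 1.07 in sham and were 0.981, 0.855, 1.05 and 0.867 in CLP replicates 1 to 4. At an unadjusted p under 0.05 were 6 of 10 genes, against 28.6% of all genes. Lifr, Il1r1, Socs3 and Osmr had adjusted p-values of 0.0508, 0.0510, 0.0522 and 0.0637. The median log2 fold change of the 10 genes was 0.42 against 0.02 for all genes tested.

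The number of calls differed widely between fits and tools. Without CLP+DCA replicate 3, a mouse of neither group, 6 of 10 genes were called in CLP versus sham (Il6ra, Osmr, Il1r1, Socs3 and Cebpd higher, Lifr lower), against 23.8% of all genes. DESeq2 on all 12 mice called 5 of 10 (13.4% of all genes), DESeq2 on the 8 mice compared called 8 of 10 (23.2%), and limma voom with sample quality weights called 8 of 10 (26.2%). The fold changes themselves could hardly move, since CLP+DCA replicate 3 is in neither group. In the fit without that mouse Osmr was at 2.17, Lifr at -1.69, Il1r1 at 1.75 and Socs3 at 1.57 on the log2 scale, the same to 2 decimals as with it.

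**Figure D2:**
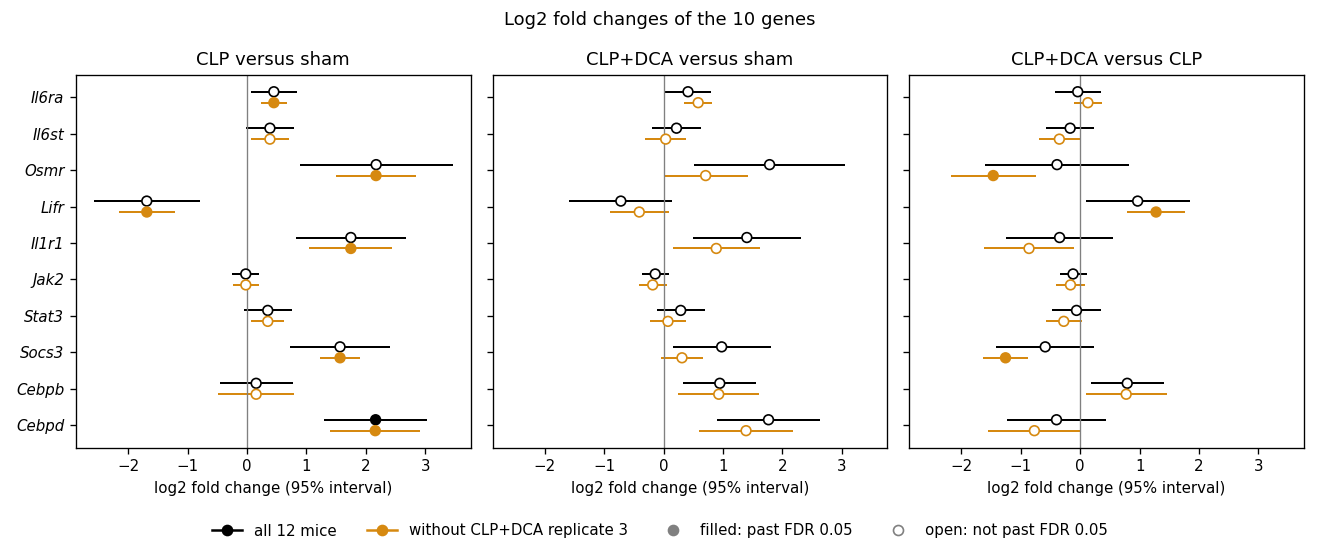
Log2 fold changes (horizontal axis) with 95% intervals of the 10 genes in the 3 comparisons, from all 12 mice (black) and without CLP+DCA replicate 3 (orange), with filled points past the FDR of 0.05. In CLP versus sham the points of both fits coincide, as that mouse is in neither group, and most intervals narrow without it. In CLP+DCA versus CLP the fold changes of Osmr and Socs3 move from -0.39 to -1.46 and from -0.59 to -1.26.

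Among the receptors, Il6ra encodes the subunit that binds IL-6 itself (Gene ID 16194, mm10 chr3:89869324-89913196, minus strand). It was at 39.4, 45.8, 34.4 and 39.4 CPM in sham replicates 1 to 4, at 59.4, 52.6, 51.6 and 54.0 CPM in CLP and at 55.9, 55.1, 32.9 and 67.7 CPM in CLP+DCA. Every CLP mouse was above every sham mouse, while CLP+DCA spanned the lowest and the highest value of the 12 mice. CLP differed from sham by a log2 fold change of 0.45 (SE 0.18, adjusted p = 0.126).

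Il6st, which encodes the shared signaling subunit gp130 (Gene ID 16195, mm10 chr13:112464070-112506860, plus strand), was at 123, 133, 107 and 154 CPM in sham, at 171, 179, 153 and 173 CPM in CLP and at 117, 112, 203 and 168 CPM in CLP+DCA. CLP replicate 3 fell just under sham replicate 4, so that these groups overlapped. For CLP versus sham the log2 fold change was 0.39 (SE 0.19, adjusted p = 0.192). The log2 ratio of Il6ra to Il6st reads within a mouse averaged -1.70 in sham mice, -1.63 with CLP and -1.51 with CLP+DCA, where it ran from -2.63 to -1.03.

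Osmr encodes the oncostatin M subunit that pairs with gp130 (Gene ID 18414, mm10 chr15:6813577-6874313, minus strand). Its level was 3.94, 3.27, 2.25 and 5.72 CPM in sham, 13.5, 24.0, 12.1 and 19.2 CPM in CLP and 5.36, 8.10, 33.6 and 5.19 CPM in CLP+DCA. All CLP mice were above all sham mice, 3 of the CLP+DCA mice lay between 5.19 and 8.10 CPM, below all CLP mice, and CLP+DCA replicate 3 was the highest of the 12. Group means were 3.79 ± 1.46 CPM in sham mice, 17.2 ± 5.48 with CLP and 13.1 ± 13.7 with CLP+DCA. The log2 fold change of CLP versus sham was 2.17 (SE 0.59), a 4.52-fold higher level with an adjusted p of 0.0637.

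Lifr encodes the receptor subunit for LIF that also pairs with gp130 (Gene ID 16880, mm10 chr15:7129572-7197489, plus strand). It was at 380, 274, 286 and 290 CPM in sham, at 129, 64.8, 109 and 78.8 CPM in CLP and at 258, 182, 52.2 and 254 CPM in CLP+DCA. Here the order was turned around: every CLP mouse and every CLP+DCA mouse was below every sham mouse, 3 CLP+DCA mice lay above all CLP mice, and CLP+DCA replicate 3 was the lowest of the 12. The level averaged 307 ± 48.5 CPM in sham and 95.4 ± 29.1 in CLP, a log2 fold change of -1.69 (SE 0.41) or 3.22-fold lower, with an adjusted p of 0.0508.

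Osmr and Lifr are neighbours on chromosome 15 and are read away from each other. Their start sites lie 255258 bases apart in mm10, with no other gene of the table between them, while RefSeq places 3 long noncoding RNA genes there (Gm30559, Gm30663 and Gm30971). The log2 ratio of Osmr to Lifr reads within a mouse averaged -6.41 in sham (from -6.99 to -5.67), -2.47 in CLP (from -3.26 to -1.43) and -4.08 in CLP+DCA. In CLP+DCA replicates 1, 2 and 4 the ratio was -5.59, -4.49 and -5.61, and in replicate 3 it was -0.64, the highest of the 12 mice. These ratios combine a gene that was higher with a gene that was lower and are given as a description, without a test.

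**Figure D3:**
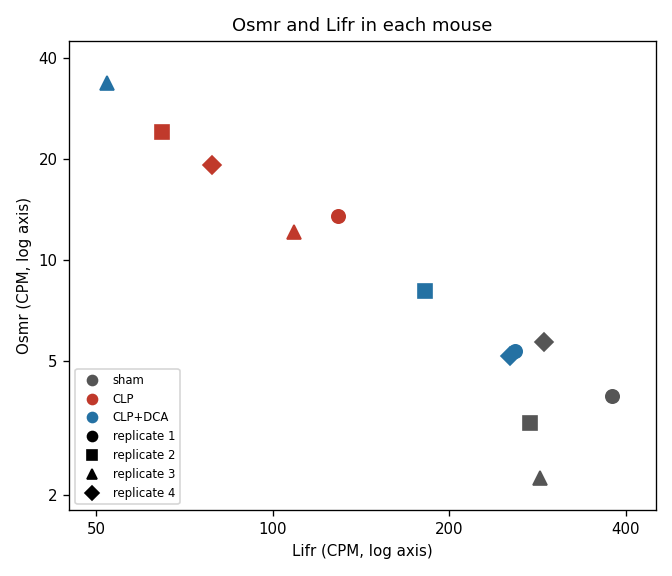
Osmr (vertical) against Lifr (horizontal) in each of the 12 mice, both in CPM on log axes, with color giving the group and symbol the replicate number. Sham mice lie at the lower right, CLP mice at the upper left, 3 CLP+DCA mice between them near sham, and CLP+DCA replicate 3 at the far upper left with 33.6 CPM of Osmr and 52.2 CPM of Lifr.

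The 250 bases before the start sites of this divergent pair are shown because Osmr was higher and Lifr lower in every CLP mouse than in every sham mouse. They are RefSeq sequences of GRCm38.p6 (the assembly of mm10), 5′ to 3′ on each gene's own strand, at chr15:6874314-6874563 (minus) for Osmr and chr15:7129322-7129571 (plus) for Lifr.
Osmr: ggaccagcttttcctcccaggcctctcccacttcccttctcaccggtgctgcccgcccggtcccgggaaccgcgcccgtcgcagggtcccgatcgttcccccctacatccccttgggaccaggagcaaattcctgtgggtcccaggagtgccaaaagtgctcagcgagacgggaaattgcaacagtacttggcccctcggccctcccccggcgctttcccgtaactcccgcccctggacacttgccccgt
Lifr: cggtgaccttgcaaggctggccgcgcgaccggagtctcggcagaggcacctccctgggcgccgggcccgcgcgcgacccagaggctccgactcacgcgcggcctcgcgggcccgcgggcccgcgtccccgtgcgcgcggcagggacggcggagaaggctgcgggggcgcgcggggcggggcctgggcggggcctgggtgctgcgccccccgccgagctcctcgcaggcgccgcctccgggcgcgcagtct
G and C made up 66% of these bases for Osmr and 82.4% for Lifr, against a median of 52.4% over 32851 promoter windows. The letters of the STAT and C/EBP patterns described with Socs3 were found in neither window, which says only that these letters are not there.

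Il1r1 encodes the signaling receptor of IL-1 (Gene ID 16177, mm10 chr1:40225080-40316177, plus strand). It was at 116, 113, 63.3 and 78.8 CPM in sham, at 185, 473, 243 and 345 CPM in CLP and at 136, 238, 466 and 140 CPM in CLP+DCA. All CLP and all CLP+DCA mice were above all sham mice, with CLP replicate 2 and CLP+DCA replicate 3 the highest. The mean was 92.8 ± 25.9 CPM in sham mice, 312 ± 126 with CLP and 245 ± 155 with CLP+DCA, and the log2 fold change of CLP versus sham was 1.75 (SE 0.42, adjusted p = 0.0510), a 3.36-fold higher level.

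Of the kinase and its target, Jak2, a Janus kinase that cytokine receptors use (Gene ID 16452, mm10 chr19:29251803-29313080, plus strand), was at 19.1, 19.9, 18.6 and 20.2 CPM in sham, at 21.2, 16.0, 20.3 and 19.2 CPM in CLP and at 17.0, 15.2, 19.2 and 19.2 CPM in CLP+DCA. The groups overlapped in every comparison. The log2 fold change of CLP versus sham was -0.02 with a 95% interval from -0.25 to 0.21, the narrowest of the 10 genes.

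Stat3, the transcription factor at the center of the pathway (Gene ID 20848, mm10 chr11:100886806-100939540, minus strand), was at 215, 220, 172 and 251 CPM in sham, at 270, 288, 252 and 284 CPM in CLP and at 211, 204, 370 and 262 CPM in CLP+DCA. No sham mouse reached the level of any CLP mouse, although CLP replicate 3 at 252.1 and sham replicate 4 at 251.2 CPM were nearly level, and CLP+DCA replicate 3 was the highest of all. This gave a log2 fold change of 0.35 (SE 0.19, adjusted p = 0.228).

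Socs3, a direct STAT3 target and the feedback inhibitor of gp130 signaling (Gene ID 12702, mm10 chr11:117966087-117969366, minus strand), was at 59.6, 39.7, 45.9 and 45.2 CPM in sham, at 131, 157, 135 and 142 CPM in CLP and at 74.3, 45.8, 198 and 56.8 CPM in CLP+DCA. CLP mice formed a tight set well above sham, 3 CLP+DCA mice lay between 45.8 and 74.3 CPM and overlapped sham, and CLP+DCA replicate 3 lay above every other mouse. Means were 47.6 ± 8.45 CPM in sham mice, 141 ± 11.5 with CLP and 93.7 ± 70.4 with CLP+DCA. The log2 fold change of CLP versus sham was 1.57 (SE 0.38), 2.96-fold higher, with an adjusted p of 0.0522.

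Read against Stat3 within each mouse, the log2 ratio of Socs3 to Stat3 reads averaged -2.17 in sham (from -2.47 to -1.85) and -0.96 in CLP (from -1.05 to -0.88). In CLP+DCA it was -1.51, -2.16, -0.90 and -2.20, so that replicates 2 and 4 fell in the range of sham and replicate 3 in that of CLP, with replicate 1 between them.

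The 250 bases before the start sites of Socs3, at chr11:117969367-117969616 (minus strand), and of Il1r1, at chr1:40224830-40225079 (plus strand), are shown because they were the windows of the 10 genes that held a match to a pattern searched. The sequences are RefSeq, GRCm38.p6, 5′ to 3′ on the gene's strand, and capitals mark the match.
Socs3: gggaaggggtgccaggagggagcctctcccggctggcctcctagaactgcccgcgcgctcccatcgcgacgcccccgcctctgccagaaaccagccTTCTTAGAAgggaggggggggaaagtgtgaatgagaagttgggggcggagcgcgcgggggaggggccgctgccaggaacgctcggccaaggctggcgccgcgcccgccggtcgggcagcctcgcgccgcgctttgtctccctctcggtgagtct
Il1r1: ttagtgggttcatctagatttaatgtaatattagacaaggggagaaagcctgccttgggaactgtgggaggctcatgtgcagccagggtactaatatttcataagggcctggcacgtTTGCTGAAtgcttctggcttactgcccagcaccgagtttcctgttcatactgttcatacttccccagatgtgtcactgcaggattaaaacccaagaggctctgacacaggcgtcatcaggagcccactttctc
In Socs3 the capitals are TTCTTAGAA, a match to the STAT pattern TTCNNNGAA whose first base lies 154 bases before the start. In Il1r1 they are TTGCTGAA, a match to the C/EBP pattern TTGCNNAA that begins 133 bases before the start. Windows of 300 bases, from 250 before to 50 after the start, were available for 9 of the 10 genes (11 windows) and were searched on both strands. The STAT pattern occurred in 1 of these 11 windows and in 8.30% of all 32851 windows, and the C/EBP pattern in 1 of 11 and in 10.8%. A 10-letter NF-kappaB pattern occurred in none of the 11 and in 1.63% of all. A match is a description of letters and not a bound site.

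Cebpb encodes C/EBPβ, first known as nuclear factor for IL-6 (Gene ID 12608, mm10 chr2:167688915-167690432, plus strand). It was at 83.8, 104, 107 and 68.7 CPM in sham, at 110, 161, 71.5 and 61.6 CPM in CLP and at 126, 183, 181 and 209 CPM in CLP+DCA. CLP mice lay on both sides of the sham range, and all 4 CLP+DCA mice were above all sham mice, replicate 3 among them and not apart. The log2 fold change of CLP versus sham was 0.15 with a 95% interval from -0.46 to 0.77. For CLP+DCA versus sham it was 0.95 (SE 0.28, adjusted p = 0.273), 1.93-fold, and without CLP+DCA replicate 3 it was 0.93 (SE 0.31, adjusted p = 0.386). For CLP+DCA versus CLP it was 0.79 (SE 0.28, adjusted p = 0.402). Cebpb was the only one of the 10 genes with its highest mean CPM in CLP+DCA, a place that Il6ra shared without CLP+DCA replicate 3 (59.5 ± 7.04 CPM in the other 3 mice), and neither CLP+DCA comparison was past the threshold.

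Cebpd encodes C/EBPδ, a factor that is scarce in resting liver and induced in the acute phase response (Gene ID 12609, mm10 chr16:15887286-15889545, plus strand). It was at 3.87, 7.38, 4.12 and 3.45 CPM in sham, at 12.2, 33.5, 16.3 and 23.1 CPM in CLP and at 10.8, 15.9, 27.0 and 10.5 CPM in CLP+DCA. Every CLP and every CLP+DCA mouse was above every sham mouse. It rose from 4.70 ± 1.81 CPM in sham to 21.3 ± 9.28 CPM in CLP, a log2 fold change of 2.17 (SE 0.40, adjusted p = 0.0283) or 4.49-fold. For CLP+DCA versus sham the log2 fold change was 1.77 (SE 0.39, adjusted p = 0.220). The call in CLP versus sham was lost without any 1 of the 4 sham mice or without CLP replicate 2 or 4, with adjusted p-values from 0.0533 to 0.0916 and log2 fold changes from 1.86 to 2.47.

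Among the C/EBP genes, the log2 ratio of Cebpd to Cebpb reads within a mouse averaged -4.32 in sham mice, -2.25 with CLP and -3.53 with CLP+DCA. Cebpa, which encodes the C/EBP factor of the resting hepatocyte, was at 428 ± 11.7 CPM in sham mice, 300 ± 76.6 with CLP and 314 ± 38.0 with CLP+DCA (log2 fold change of CLP versus sham -0.51, SE 0.17, adjusted p = 0.0938). The log2 ratio of Cebpb to Cebpa reads ran from -2.63 to -2.04 in sham, from -2.32 to -0.30 in CLP and from -1.33 to -0.59 in CLP+DCA, where every mouse was above every sham mouse.

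**Figure D4:**
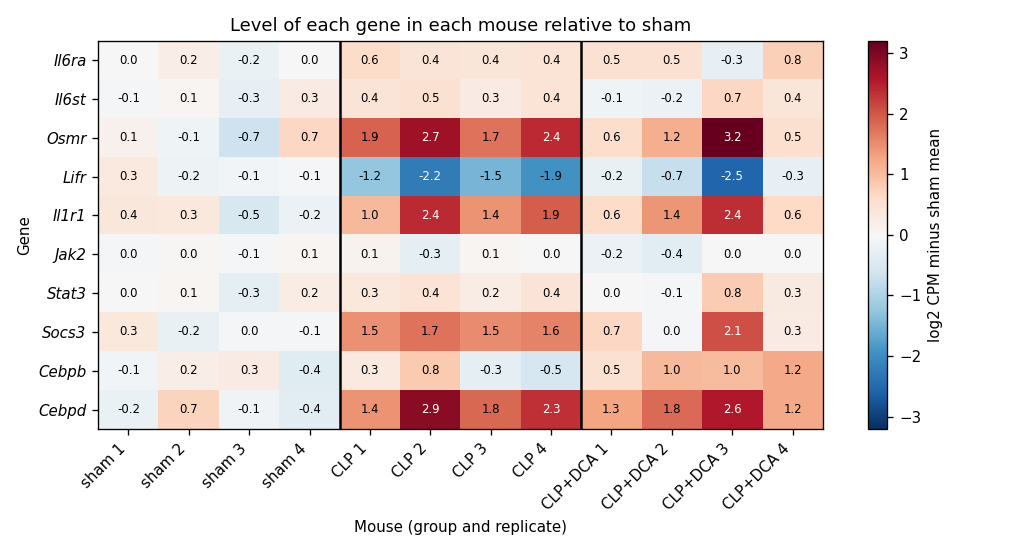
Log2 CPM of each gene (rows) in each mouse (columns) minus the mean of the 4 sham mice, printed in each cell and colored from blue (lower) to red (higher). In the CLP mice Lifr is blue and Osmr, Il1r1, Socs3 and Cebpd are red. CLP+DCA replicate 3 shares this pattern of 5 genes and reaches 3.204 for Osmr and -2.54 for Lifr. Il6ra is at -0.27 in that mouse and at 0.38 to 0.59 in the CLP mice. Cebpb departs from the pattern, at -0.53 to 0.85 in the CLP mice.

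To compare levels between genes, CPM was divided by the length of each gene's exons in kilobases. In sham the order was Cebpb (60.3 ± 11.9 CPM per kilobase), Stat3 (47.5 ± 7.25), Lifr (29.6 ± 4.68), Socs3 (18.7 ± 3.32), Il1r1 (18.4 ± 5.14), Il6st (16.7 ± 2.55), Il6ra (11.8 ± 1.39), Jak2 (3.87 ± 0.146), Cebpd (2.08 ± 0.799) and Osmr (0.785 ± 0.302). Of neighbours in this order, Cebpb and Stat3, Socs3 and Il1r1, and Il1r1 and Il6st overlapped between mice, and the others did not. In CLP the order on this scale was Cebpb (67.1 ± 29.8), Il1r1 (61.9 ± 25.1), Stat3 (60.5 ± 3.55), Socs3 (55.4 ± 4.51), Il6st (21.8 ± 1.43), Il6ra (16.1 ± 1.03), Cebpd (9.41 ± 4.11), Lifr (9.20 ± 2.81), Jak2 (3.81 ± 0.452) and Osmr (3.56 ± 1.13). Here the first 4 overlapped from neighbour to neighbour, as did Cebpd with Lifr and Jak2 with Osmr. Lifr thus went from above Socs3, Il1r1 and Il6st in sham to below all of them in CLP. In CLP+DCA, Cebpb (116 ± 23.3 CPM per kilobase) came first and did not overlap its neighbour Stat3 (57.9 ± 17.0), though its range of 83.6 to 139 overlapped that of Il1r1 (27.0 to 92.5), and the levels from Stat3 down to Cebpd (7.10 ± 3.41) overlapped from neighbour to neighbour.

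To ask what DCA did in septic mice, CLP+DCA was compared with sham and with CLP. Against sham, none of the 10 genes was called by edgeR's quasi-likelihood test (0 of 10, against 0.0379% of all genes), 6 of 10 had an unadjusted p under 0.05 (13% of all genes), and 4 of 10 did not overlap (9.76%): Il1r1, Cebpb and Cebpd above sham and Lifr below. Log2 fold changes were 1.78 for Osmr (SE 0.58), 1.40 for Il1r1 (SE 0.42), 0.98 for Socs3 (SE 0.38) and -0.72 for Lifr (SE 0.40), with adjusted p-values from 0.273 to 0.445. DESeq2 called Il1r1 and Cebpd on all 12 mice (2 of 10, 1.79% of all genes) and Il1r1, Cebpb and Cebpd on the 8 mice compared (3 of 10, 1.19%), and voom called Il6ra and Cebpd (2 of 10, 3.76%). Without CLP+DCA replicate 3 none was called (0.0828% of all genes) and 5 of 10 had an unadjusted p under 0.05. The log2 fold changes then were 0.71 for Osmr, 0.31 for Socs3, 0.89 for Il1r1, 1.39 for Cebpd and -0.41 for Lifr.

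Against CLP, none of the 10 genes was called by edgeR either (0 of 10, against 0.00758% of all genes), Lifr and Cebpb had an unadjusted p under 0.05 (2 of 10, against 10% of all genes), and all 10 genes overlapped between the groups (4.37% of all genes did not). DESeq2 called none on all 12 mice (0.875% of all genes) or on the 8 mice compared (0.615%), and voom, which weights libraries by quality, called Osmr, Lifr and Socs3 (3 of 10, 10.2% of all genes). The log2 fold changes were 0.97 for Lifr (SE 0.40, adjusted p = 0.455), -0.59 for Socs3 (SE 0.38, adjusted p = 0.632) and -0.39 for Osmr (SE 0.56, adjusted p = 0.846). The median over the 10 genes was -0.14, against 0.01 over all genes.

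In edgeR's test CLP+DCA replicate 3 decided whether these genes were called. That mouse was singled out by its extreme levels in these same genes. Leaving it out narrows their spread by choice, so the p-values that follow are no independent test. Without replicate 3, Osmr was lower than in CLP (log2 fold change -1.46, SE 0.32, adjusted p = 0.0344), Socs3 was lower (-1.26, SE 0.17, adjusted p = 0.0101) and Lifr was higher (1.28, SE 0.22, adjusted p = 0.0199), 3 of 10 genes called against 4.64% of all genes. Without any 1 of the other 11 mice, edgeR called none of the 10. In the remaining 3 mice Socs3 averaged 59.0 ± 14.3 CPM, Osmr 6.22 ± 1.63 CPM and Lifr 231 ± 42.9 CPM, and in replicate 3 they were at 198, 33.6 and 52.2 CPM. Summed neutrophil and monocyte markers were at 55.9 CPM in that mouse against 7.79 to 15.2 in the other 3, and their part was not tested. Most of that sum was S100a8, S100a9 and Ngp, at 17.7, 20.5 and 8.40 CPM. Ly6g (0.271 CPM) and Elane (0.0542 CPM) were instead lower there than in any other CLP+DCA mouse. Cebpb and Jak2 in that mouse lay within the range of the other CLP+DCA mice. The labels give no reason to set the mouse aside.

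CLP mice also differed among themselves, in an order that several of the genes shared. CLP replicate 2 had the highest level of the CLP mice in 7 of the 10 genes and the lowest in 2, Lifr and Jak2. From high to low, Il6ra ran 1, 4, 2, 3, Cebpb 2, 1, 3, 4, and Il6st, Osmr and Stat3 2, 4, 1, 3. Il1r1, Socs3 and Cebpd ran from replicate 2 through 4 and 3 down to 1. Lifr ran in the reverse order, highest in replicate 1 and lowest in replicate 2. Hepatocyte marker sums were lowest in the same mice, 33015 CPM in replicate 2 and 43952 in replicate 4 against 50270 and 51378 in replicates 3 and 1. The markers did not all share this order. Hnf4a was highest of the CLP mice in replicate 2 (803 CPM) and Apob in replicate 4 (8589 CPM). TMM factors, by which levels are divided, were also lowest in CLP replicates 2 and 4. They were 0.855 and 0.867 there, against 0.981 and 1.05 in replicates 1 and 3. The part of this scaling in the order of the mice was not tested.

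The genes whose pattern over the 12 mice was most like that of Stat3 were Usp53, Cic and Sptbn1, with root mean square differences of 0.08, 0.09 and 0.10 in log2 CPM after centering on sham, among 13190 genes. For Socs3 they were Jam2, Npdc1 and Vwf, at 0.22, 0.26 and 0.30. Vwf, the gene of von Willebrand factor of endothelium, averaged 3.11 CPM in sham mice, 8.80 with CLP and 4.95 with CLP+DCA, and at 10.5 in CLP+DCA replicate 3. Being ranked over the same 12 mice, these genes share libraries with the genes they resemble.

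The rest of the pathway was read from 9 lists of 86 genes, and 79 had enough reads to be tested. Comparing CLP with sham, 16 of these 79 rose and none fell by edgeR's quasi-likelihood test, against 1.64% of all genes called higher. The 2 acute phase lists gave 14 of the 16, out of 22 genes tested, and the 7 other lists gave 2 out of 57. Without CLP+DCA replicate 3, 19 of the 22 and 19 of the 57 were called, against 23.8% of all genes. Saa3 was the only one of the 79 still called without any 1 of the 4 sham mice or without CLP replicate 2 or 4, so that the other 15 calls, Il1b, Nfkbiz and A2m among them, ended in each of these fits.

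Of the ligands, 5 of 10 passed the filter and 1 rose: Il1b, the gene of IL-1β, went from 1.23 ± 0.305 CPM in sham to 3.197 ± 0.889 in CLP (log2 fold change 1.36, SE 0.31, adjusted p = 0.0463) and was at 1.60 ± 0.696 in CLP+DCA. Cntf had the next smallest p, with a log2 fold change of -1.11 (adjusted p = 0.108). Il6 itself had 0 reads in every sham mouse, 2, 2, 2 and 1 reads in CLP and 1, 0, 3 and 0 in CLP+DCA, which is at or under the 3 reads (0.0795 to 0.118 CPM in a sham library) that a count of 0 allows, so that no fold is given. Il6, Il11, Il27, Lif and Osm had at most 8 reads in any mouse. In exact two-sided permutation tests of these 5 genes in CLP versus sham, Il6 gave p = 0.0286 (the smallest value possible with 4 mice in each group) and 0.143 after adjustment over the 5, with p from 0.171 to 0.743 for the others. Osm, the ligand of the Osmr product, had 0 to 2 reads in sham, 0 to 6 in CLP and 1 to 4 in CLP+DCA.

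Among other receptors, sheddases and decoys, 0 of 8 tested were called, with a median log2 fold change of 0.28. The 2 smallest p-values belonged to inhibitors of IL-1: Il1rn, the receptor antagonist, at 3.40 ± 1.74 CPM in sham and 141 ± 145 in CLP (log2 fold change 5.36, SE 1.62, adjusted p = 0.0761), and Il1r2, the decoy receptor, at 0.124 ± 0.0295 and 1.082 ± 0.466 CPM (3.06, SE 0.94, adjusted p = 0.0772). Of other kinases and STATs 0 of 8 were called (median 0.08). Jak3 had a log2 fold change of 0.29 (adjusted p = 0.137).

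Feedback inhibitors other than Socs3 gave 0 of 13 (median 0.19). Socs1 was below 0.5 CPM in every sham mouse, at 0.991, 11.2, 1.21 and 8.89 CPM in CLP and at 0.447, 0.605, 15.1 and 0.159 CPM in CLP+DCA. The CLP mice fell into a high and a low pair for Socs1, which they did not for Socs3, and its log2 fold change was 4.08 with an SE of 1.43 (adjusted p = 0.0994). Ptpn1, a phosphatase of Janus kinases, had a log2 fold change of 0.49 (adjusted p = 0.0865). Other C/EBP proteins gave 0 of 5 (median -0.22), with the smallest p-values for Cebpa and for Cebpe (log2 fold change -1.17, adjusted p = 0.148).

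Of the IL-1 receptor adaptors and kinases 1 of 8 rose (median 0.35): Nfkbiz, an inducible nuclear cofactor of NF-κB, went from 12.7 ± 0.665 to 35.9 ± 15.01 CPM (log2 fold change 1.501, SE 0.34, adjusted p = 0.0450). Irak3, an inhibitor of that pathway, had a log2 fold change of 3.18 (SE 0.92, adjusted p = 0.0710). STAT3-linked early response genes gave 0 of 10 (median 0.54), with log2 fold changes of 3.81 for Timp1 (adjusted p = 0.0568) and 2.77 for Steap4 (adjusted p = 0.0585).

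Acute phase genes lie downstream of these factors. Of the IL-6-type list 7 of 14 rose (median log2 fold change 1.36): Hp, Hpx, Lbp, Apcs, Itih3, Serpina3n and A2m. By sign 13 of the 14 were higher and 1 lower, Hamp, at 855 ± 215 CPM in sham and 611 ± 165 in CLP. Apcs, the gene of serum amyloid P, went from 465 ± 61.7 to 2805 ± 972 CPM (log2 fold change 2.59, adjusted p = 0.0202). A2m went from 0.294 ± 0.0613 CPM in sham to 267, 2098, 191 and 2345 CPM in CLP (log2 fold change 12.002, SE 2.56, adjusted p = 0.0412), and was at 18.5, 11.8, 3011 and 5.06 CPM in CLP+DCA. Its CLP mice split into the same pairs as for Socs1.

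Of the IL-1-type list 7 of 8 rose (median 1.98): Saa1, Saa2, Saa3, Orm1, Orm2, C3 and Lcn2. Saa3 went from 15.1 ± 3.09 CPM in sham to 6499 ± 2528 in CLP (log2 fold change 8.75, SE 0.76, adjusted p = 0.00150) and was the 1 listed gene called in CLP+DCA versus sham (7.53, SE 0.73, adjusted p = 0.00428). Orm2, an orosomucoid gene, went from 413 ± 32.5 to 2119 ± 722 CPM (2.36, adjusted p = 0.0196). Saa1 with Saa2, and Orm1 with Orm2, are near-identical neighbours whose reads the counting could have split, so that their separate values are uncertain. In CLP+DCA versus CLP 0 of the 79 genes were called.

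Without CLP+DCA replicate 3 the pathway lists gave 34 higher and 4 lower in CLP versus sham, 1 higher in CLP+DCA versus sham, and 2 higher and 15 lower in CLP+DCA versus CLP. In the same fits 23.8%, 0.0828% and 4.64% of all 13288 genes tested were called.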

How the data were processed

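RNA of whole liver was isolated from 12 mice (4 sham, 4 CLP, 4 CLP+DCA), and poly(A)-enriched libraries were sequenced as paired ends. The authors used STAR 2.5 for alignment to mm10 and featureCounts (Subread 1.5.0-p1) for counting, and the deposited table holds raw counts per gene. The gene annotation and strand setting are not given in the sources used here, so reads of a gene and of an antisense partner cannot be told apart. The authors' own test was DESeq2, whose output was not used.

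Groups and replicate numbers came from the labels. The 10 genes, the pathway and marker lists and the tests were chosen with earlier results of these data known. Counts were filtered with filterByExpr (minimum count 10), scaled by TMM and tested with edgeR 4.0.16 in R 4.3.3 (robust quasi-likelihood F-test, group as the only factor, Benjamini-Hochberg, FDR 0.05). The SE is the absolute log2 fold change over the square root of F, and log2 CPM used a prior count of 2. DESeq2 1.42.0 and limma 3.58.1 (voom with sample quality weights) were alternatives, besides other scalings, no filter, edgeR on the 8 mice compared, a replicate block, other FDRs and leaving out each mouse. The fit was checked on simulated counts. With 24436513 to 44266819 reads per library, spread between mice and not counting limited precision, except for genes of a few reads, where a floor of 3 reads was used. Intervals of 95% are those of the difference between group means, with an error estimated from the spread between mice, and not the range of single mice. The named genes were the 10, all listed genes past the FDR in any comparison, the 2 genes of each list with the smallest p in CLP versus sham, and the 3 genes most alike to Stat3 and Socs3. Hamp and single cell type markers were named besides, to show where members of a list differed. The values of 1 gene that this rule names are not reported here. Positions are those of the table, exon lengths are from GENCODE (mm10) clipped to these positions, and promoter sequences are RefSeq, GRCm38.p6.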

Additional observations from a re-analysis of the deposited data

Results flagged for a closer look

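In groups of 4, the highest or lowest mouse was set against the range of its group for the 10 genes in 3 groups, 30 tests in all, of which chance flags about 1 in 20. On the CPM scale 3 passed Dixon's 95% critical value for 4 samples. Osmr in CLP+DCA replicate 3 (33.6 CPM against 5.19 to 8.10 in the other 3) had a gap of 0.897 of the range. Lifr in sham replicate 1 (380 CPM against 274 to 290) had a gap of 0.85. Cebpd in sham replicate 2 (7.38 CPM against 3.45 to 4.12) had a gap of 0.83, just past the value. On the log2 scale 0 of the 30 passed, with a largest gap of 0.828.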

How the results depend on the processing

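Of the 10 genes, edgeR called 1 in CLP versus sham. The count, with the share of all genes called, was 5 with DESeq2 on 12 mice (13.4%), 8 with DESeq2 on 8 mice (23.2%), 7 with edgeR on 8 mice (18.3%), 3 without robust estimation (2.85%), 8 with voom (26.2%), 3 with a library total that leaves out the acute phase genes (3.31%), an alternative chosen after seeing the data, and 5 at an FDR of 0.1 and 0 at 0.01. Leaving out 1 mouse gave 0 (any sham mouse, CLP replicate 2 or 4) to 6 (CLP+DCA replicate 3), with 0.0749% to 23.8% of all genes called. RLE scaling (2.7% of all genes called), the library total alone (1.58%) and no filter (0.647%) left it at 1. The share of all genes called at an FDR of 0.1 or 0.01 was not counted. Counts at these thresholds, for the 10 genes and the pathway lists, thus have no background beside them. The pathway count of 16 became 6 without a filter (0.647% of all genes called), 28 and 40 with DESeq2 on 12 and 8 mice, 35 with edgeR on 8 mice, 41 with voom, 31 and 1 at an FDR of 0.1 and 0.01, and 1 to 38 when leaving out 1 mouse (38 without CLP+DCA replicate 3; 1 without any sham mouse or without CLP replicate 2 or 4). For CLP+DCA versus sham the 0 became 2 with DESeq2 on 12 mice, 3 on 8 mice and 2 with voom. For CLP+DCA versus CLP it became 3 with voom, and 0 to 3 when leaving out 1 mouse. The cause was not tested.

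With the replicate number as a block, the 10 genes gave 1, 0 and 0 calls in the 3 comparisons and the pathway lists 1, and calls over all genes went from 367 to 46, from 5 to 0 and from 1 to 4. The numbers pair no mice: deviations of same-numbered mice correlated from -0.46 to 0.55 over all genes, and 1 of 12 correlations was over 0.1.

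Signs turned for small values only. In CLP versus sham, Jak2 (-0.02) became 0.0286 with voom, 0.0765 without the acute phase genes in the library total and -0.0744 to 0.0553 when leaving out 1 mouse (above 0 without CLP replicate 2), and Cebpb (0.15) became -0.0406 with the library total alone and -0.161 to 0.329 when leaving out 1 mouse (below 0 without CLP replicate 2). Il6st in CLP+DCA versus sham (0.22) became -0.0407 with voom. In CLP+DCA versus CLP, Il6ra (-0.04) became 0.0868 with the library total alone, 0.0269 with voom and -0.182 to 0.130 when leaving out 1 mouse (above 0 without CLP replicate 1 or CLP+DCA replicate 3), and Stat3 (-0.06) became 0.0376 with the library total alone and -0.277 to 0.0300 when leaving out 1 mouse (above 0 without CLP+DCA replicate 1 or 2). The library total alone shifted the median of all genes by -0.15 in CLP versus sham.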
